A study of Mus musculus with 12 samples.

Results

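The genes of WNT ligands, their receptors, antagonists and the proteins that relay the signal were described in mouse granulosa cells before and after an ovulatory dose of human chorionic gonadotropin (hCG). A gene belonged to the set if its symbol in the platform annotation began with Tcf7, began with Wnt, Fzd, Sfrp, Dkk or Rspo and a number, or was Lrp5, Lrp6, Axin1, Axin2, Lef1, Lgr4, Lgr5, Lgr6, Znrf3, Rnf43, Wif1, Dvl1, Dvl2, Dvl3 or Apcdd1. A probe set is a group of short oligonucleotides that measures a transcript, and where a gene had several, the one of highest mean was used. This gave 59 of the 18194 genes measured. They were 19 ligands, 12 receptors and co-receptors, 10 antagonists, 9 genes of the R-spondin axis, 5 cytoplasmic proteins, 3 transcription factors and Fzd10os, a transcript from the strand opposite to Fzd10 that the rule also caught.

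WNT proteins are secreted, lipid-modified ligands that bind a Frizzled receptor together with the co-receptor LRP5 or LRP6. In the canonical branch this recruits Dishevelled (DVL) and Axin to the membrane, stops the breakdown of beta-catenin, and lets beta-catenin enter the nucleus and act with TCF and LEF proteins. Antagonists either bind the ligand (SFRP proteins, WIF1) or the co-receptor (DKK proteins), while R-spondins and LGR receptors keep Frizzled proteins on the cell surface by restraining the ligases ZNRF3 and RNF43. In the mouse ovary WNT4 is needed for female development of the gonad, and granulosa cells of the follicle are known to express ligands, receptors and antagonists of the pathway.

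RNA was measured on 12 Affymetrix mouse genome arrays, 3 in each of 4 groups, and each array carried RNA of granulosa cells pooled from 5 mice. The mice were wild type (WT) littermates or Ex6DEL mice, which lack exon 6 of Snf2l. Snf2l, listed as Smarca1 in the annotation, encodes an ISWI-type ATPase that slides nucleosomes. The allele was made by crossing mice with a loxP-flanked exon 6, on a 129Sv background, to a ubiquitously expressed Gata-1 Cre line on a CD-1 background, then passed through the germline and kept on 129SV without Cre, so it is present in every cell of the animal. Females aged 24 to 26 days were all primed with PMSG (pregnant mare serum gonadotropin, 5 IU) to grow follicles. Granulosa cells were freed from single punctured follicles 48 h later (0 h), or 4 h after a further 5 IU of hCG, which acts on the luteinizing hormone (LH) receptor (4 h). Whether arrays of the same group held different pools of mice is not given in the labels, so p-values measure only the spread between these arrays, which may be technical.

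Granulosa markers (11 genes) had a mean log2 intensity between 11.04 and 13.5 on every array. Within 0.1 of the floor on all arrays were Amh of this list, Figla of the oocyte list, Pecam1 of the endothelial list and Hba-a1 of the red blood cell list. Other markers of those cells were not, with Gdf9 of oocytes between 9.62 and 12.4, Alas2 of red blood cells between 7.98 and 11.5 and Kdr of endothelium between 5.91 and 9.39. The mean of the oocyte list (10 genes) lay between 6.76 and 8.73, of the endothelial list (7 genes) between 3.22 and 4.46, of leukocytes (8 genes) between 4.73 and 6.00, of red blood cells (3 genes) between 5.22 and 6.51 and of the ovarian surface epithelium (7 genes) between 3.90 and 5.69. Smarca1 lay between 10.3 and 12.3 on all 12 arrays, read by 1 probe set, and whether it lies in the deleted exon was not examined, so it does not check the genotype. Ex6DEL 0 h replicate 1 stood apart by its theca and stroma markers (11 genes), whose mean was 12.1 there against 8.24 to 9.36 on the other 0 h arrays and 7.73 to 8.71 on those of 4 h. The same array had the highest granulosa mean (13.5) and oocyte mean (8.73) and the lowest leukocyte mean (4.73) of the 12 arrays. Ex6DEL 0 h replicate 3 stood apart by 10 LH-induced genes, whose mean was 9.57 there against 3.28 to 4.79 on the other 0 h arrays and 10.96 to 12.8 on those of 4 h. Across genes, which are not independent, that array correlated with a 4 h array at up to 0.987 and with its own group at 0.961 to 0.980. The next highest mean of the LH-induced genes at 0 h, 4.79, was that of WT replicate 1. There Ereg was at 10.7, against 3.88 to 5.43 on the remaining 0 h arrays. Ptgs2, Btc, Tnfaip6 and Ptx3 were also above those arrays, and Pgr, Runx1, Has2, Edn2 and Sult1e1 were not.

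Many genes of the set, like many of all genes, gave no signal above the lower part of the array. The values are log2 intensities with a floor of 2.21, and array medians lay between 2.75 and 2.91. On all 12 arrays 33 of the 59 genes (55.9%) lay above the array's median, against 57.6% of all genes measured. Above it on no array were 15, a count not made over all genes. Within 0.1 of the floor on every array were the ligands Wnt2b and Wnt3, the receptor Fzd9, the co-receptor Lrp5, the antagonists Dkk2 and Wif1, the R-spondin Rspo4 and the Dishevelled gene Dvl3. A change in these 8 genes could not be measured. Of all genes, 10.6% lay as near the floor on every array. Only the common floor defines the 8, so other dim genes are not counted among them. Above the median on every array were 6 of the ligands (Wnt4, Wnt5a, Wnt5b, Wnt7a, Wnt9a and Wnt9b) and 10 of the receptors and co-receptors, namely Lrp6 and every Frizzled gene of the set except Fzd9. So were the antagonists Sfrp1, Sfrp4, Apcdd1 and Dkk3 and the R-spondin axis genes Lgr4, Lgr5, Lgr6, Rspo2 and Znrf3. Axin1, Axin2, Dvl1, Dvl2, Tcf7l1, Tcf7l2, Lef1 and Fzd10os completed the 33. Some of the 33 repeated a low value of their own on most arrays. Lef1 did so at 3.05, Wnt9a at 3.26, Wnt9b at 3.19 and Fzd10os at 3.49, and Lgr5 also repeated 1 value. For these genes, lying above the median does not by itself show expression. Dkk1, below the median on every array, likewise repeated 2.505. The mean of a gene lay above the median of gene means (4.74) for 28 members, which are the ones plotted for the comparisons. Levels of different probe sets are not comparable with each other, so no order of expression between genes is read from them.

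**Figure D1:**
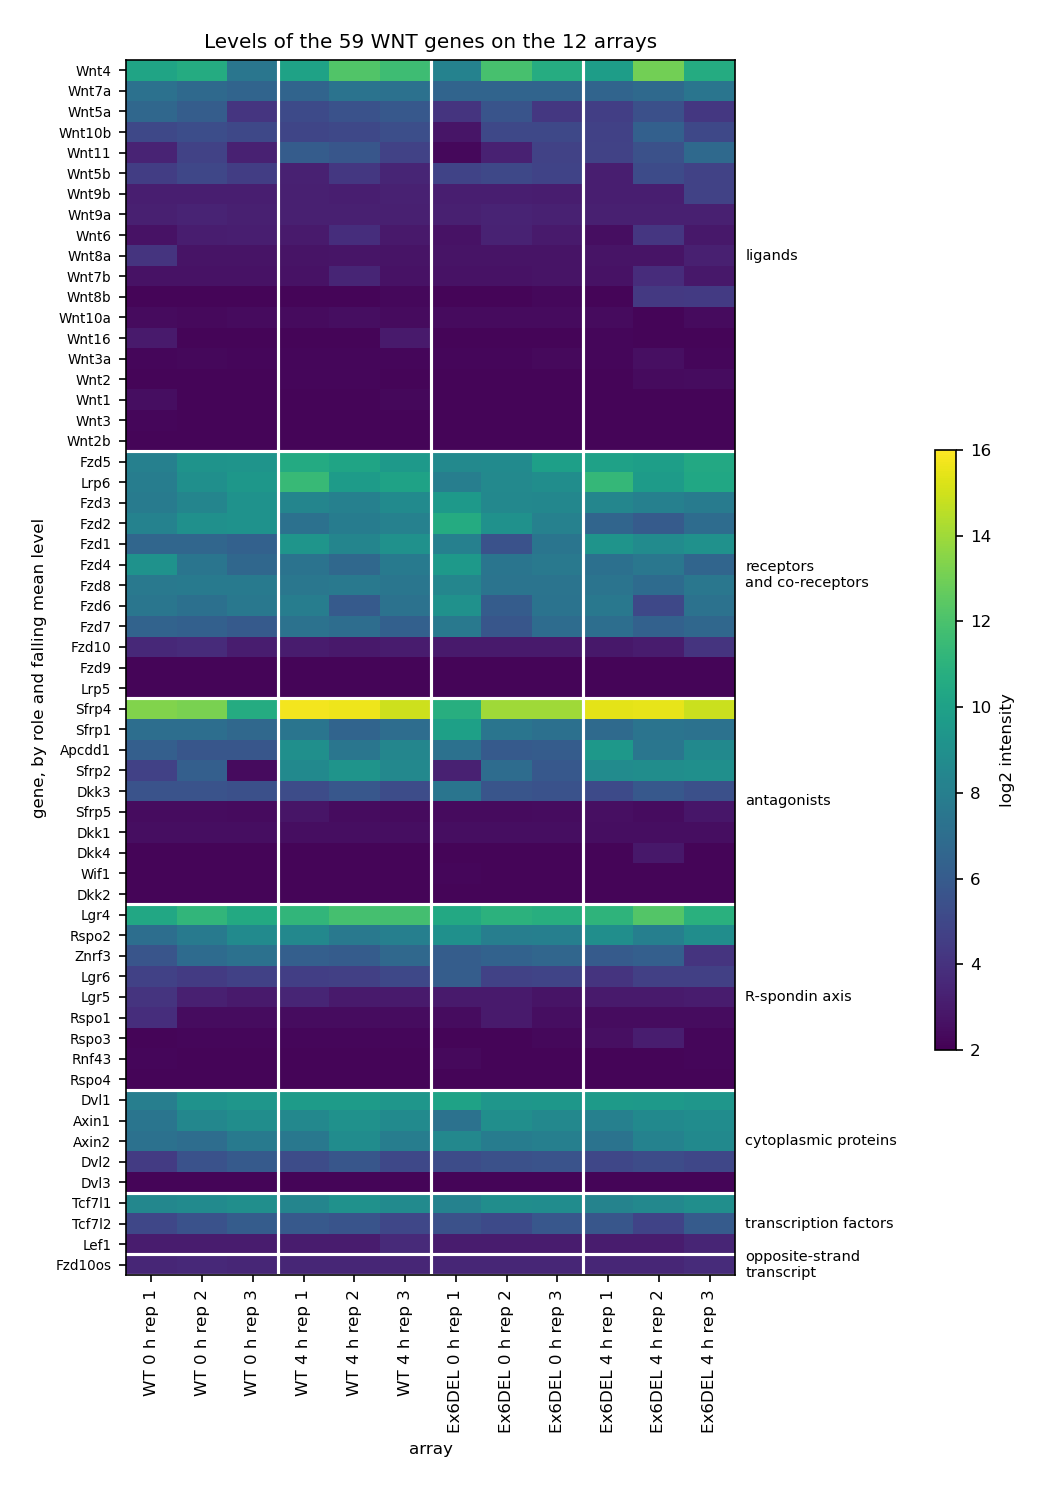
Log2 intensity (colour) of the 59 WNT genes (vertical axis, by role) on the 12 arrays (horizontal axis, 3 replicates in each group). Colours compare arrays within a gene, not genes with each other. Sfrp4 and Sfrp2 are brighter on all 6 arrays of 4 h than on any array of 0 h, and 6 of the 19 ligands lie above the array median on all 12 arrays.

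Over both genotypes together, hCG went with higher Sfrp2, Sfrp4 and Apcdd1, which are antagonists of the pathway, and with higher Fzd1 and Lrp6, a receptor and the co-receptor. The receptor Fzd2 was lower. These 6 of 59 genes (10.2%) passed an adjusted p of 0.05 in the mean of the WT and Ex6DEL responses, and 9.72% of all genes did. The 5 that rose were 8.47% of the set, while 3.1% of all genes rose, and the 1 that fell was 1.69% of it, while 6.62% of all genes fell. For each of the 6 genes the 6 arrays of 4 h did not overlap the 6 of 0 h, as held for 7.67% of all genes. The calls of Sfrp2, Apcdd1 and Fzd1 were kept in all 12 fits that left out 1 array, and those of Sfrp4, Fzd2 and Lrp6 were not. With the replicate number as a block the calls of Sfrp4, Fzd2 and Lrp6 were also lost (adjusted p = 0.0639, 0.0538 and 0.0577) and Lgr4 was called. The median log2 difference was 0 over all 59 genes. Over the 28 above the median level it was 0.26, with 15 positive and 13 negative, against -0.20 over all genes above that level. For the same 28 genes it was 0.16 in WT and -0.02 in Ex6DEL. The test was limma's moderated test on all 12 arrays, two-sided, with Benjamini-Hochberg adjustment over all 18194 genes. Cells were measured in bulk, so fewer cells of a type and less RNA per cell cannot be told apart.

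Some markers of cell types moved with time as well. The granulosa mean (11 genes) was 11.9 to 12.8 in WT at 0 h and 11.3 to 12.01 at 4 h, and 12.6 to 13.5 in Ex6DEL at 0 h and 11.04 to 11.1 at 4 h. Of the 11 genes 4 fell over both genotypes, Fshr, the FSH receptor gene, by 3.39, Inhbb by 3.78, Hsd17b1 by 1.80 and Amhr2 by 1.52 on the log2 scale, and none rose. Of the 11 theca and stroma genes none passed, with a median log2 difference of -1.05, and Tcf21 and Lum had -2.12 (limma adjusted p = 0.0793) and -1.74 (limma adjusted p = 0.176). That median was -0.16 in WT and -1.91 in Ex6DEL. The mean of the list overlapped between times in WT, at 8.24 to 9.36 and 8.36 to 8.71. In Ex6DEL it was 8.31 to 12.1 at 0 h, highest on replicate 1, and 7.73 to 8.63 at 4 h. Of the LH-induced list 8 of 10 rose. The part of these markers in the differences of the WNT genes was not tested.

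Sfrp2 and Sfrp4 encode secreted Frizzled-related proteins, which carry a Frizzled-like domain and bind WNT ligands outside the cell. Sfrp2 had log2 intensities of 4.71, 6.22 and 2.38 on the 0 h arrays of WT (replicates 1 to 3) and 8.65, 9.26 and 8.55 at 4 h. In Ex6DEL it had 3.26, 6.94 and 5.86 at 0 h and 8.73, 8.84 and 8.98 at 4 h. All arrays of 4 h lay above all of 0 h, and the 4 h arrays lay close together while those of 0 h were spread over several log2 units. Averaged over genotypes, the log2 difference of Sfrp2 was 3.94 (SE 0.76, n = 6 arrays at each time, limma adjusted p = 0.0174), a 15.3-fold difference. It was 4.38 in WT and 3.50 in Ex6DEL (SE 1.07 each), with limma adjusted p of 0.103 and 0.124.

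Sfrp4 had log2 intensities of 13.33, 13.16 and 10.62 in WT at 0 h and 15.75, 15.65 and 14.92 at 4 h. In Ex6DEL the values were 10.76, 13.98 and 14.03 at 0 h and 15.41, 15.50 and 14.90 at 4 h. Every array of 4 h was again above every array of 0 h, and WT replicate 3 and Ex6DEL replicate 1 were the lowest of the 0 h arrays for both genes. Sfrp4 differed by 2.704 on average (log2, SE 0.69, limma adjusted p = 0.0430), or 6.52-fold. The call was kept in 3 of the 12 fits that left out 1 array, with adjusted p between 0.0358 and 0.0993 by limma, namely without WT 0 h replicate 1 or Ex6DEL 0 h replicate 1 or 3, and was lost under quantile normalization (adjusted p = 0.0746). Without Ex6DEL 0 h replicate 1 the difference in Ex6DEL alone was 1.27, against 2.35 with it.

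Apcdd1, which encodes a membrane-bound inhibitor of WNT signalling known to bind WNT ligands and LRP5, differed less between replicates than Sfrp2 and Sfrp4 at 0 h, but more at 4 h. Its log2 intensities were 6.22, 5.74 and 5.72 in WT at 0 h and 8.96, 7.48 and 8.45 at 4 h. In Ex6DEL they were 7.21, 5.99 and 6.05 at 0 h and 9.47, 7.48 and 8.67 at 4 h. Both genotypes moved upward without overlap, and replicate 1 was the highest array in each of the 4 groups. Averaged over genotypes, its log2 difference was 2.26 (SE 0.41, limma adjusted p = 0.0132), or 4.80-fold. Of its 5 other probe sets, those with the next signals gave 0.47, 2.04, 2.05 and 1.09, and the last was near the floor.

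The other antagonists above the median on all arrays, Sfrp1 and Dkk3, did not pass the test. Sfrp1 had 7.05, 7.04 and 6.72 in WT at 0 h, 7.43, 6.52 and 6.99 in WT at 4 h, 9.96, 7.42 and 7.16 in Ex6DEL at 0 h and 6.84, 7.39 and 7.26 in Ex6DEL at 4 h. Apart from Ex6DEL 0 h replicate 1, its arrays lay between 6.52 and 7.43, and the times overlapped in both genotypes. Sfrp1 had an averaged log2 difference of -0.49 (95% interval -1.53 to 0.56). That of Dkk3, a divergent member of the Dickkopf family, was -0.42 (interval -1.16 to 0.32).

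**Figure D2:**
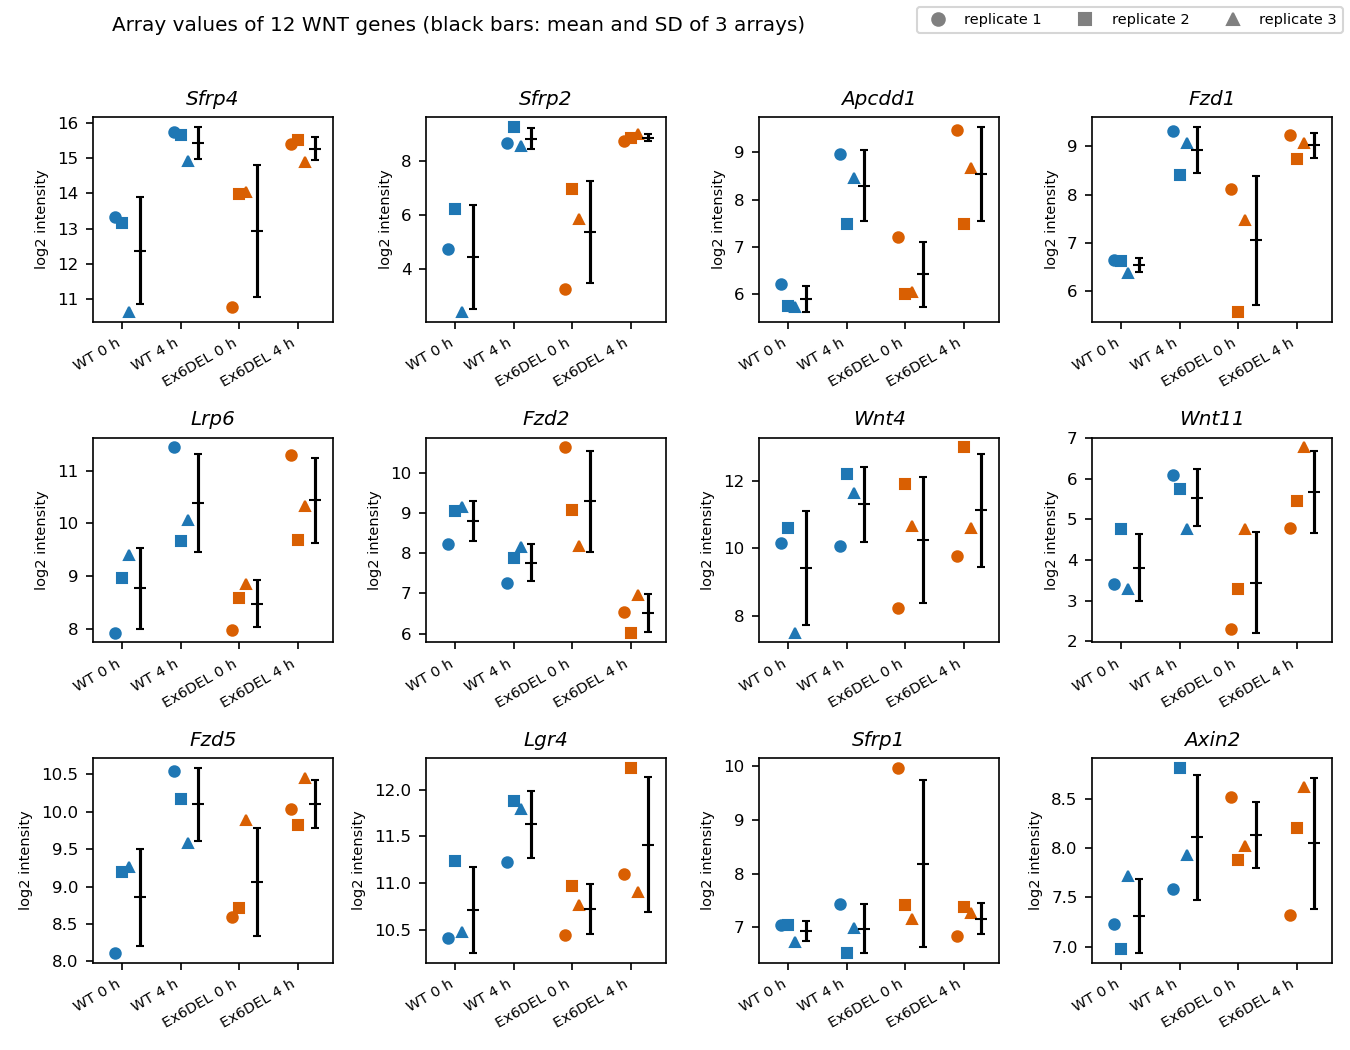
Log2 intensity (vertical axis, own scale in each panel) of 12 WNT genes on every array, by group (horizontal axis, WT in blue, Ex6DEL in orange), with replicates 1 to 3 as circle, square and triangle and the mean and SD of 3 arrays in black. The 4 h arrays of Sfrp2, Sfrp4, Apcdd1, Fzd1 and Lrp6 lie above, and those of Fzd2 below, all arrays of 0 h. Sfrp1 is high on 1 array of Ex6DEL at 0 h, at 9.96.

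Among the receptors Fzd1 and Fzd2, both Frizzled proteins with a seven-pass membrane domain, moved in opposite directions. Fzd1 had log2 intensities of 6.63, 6.61 and 6.36 in WT at 0 h and 9.32, 8.40 and 9.08 at 4 h. In Ex6DEL it had 8.12, 5.55 and 7.47 at 0 h and 9.25, 8.75 and 9.07 at 4 h. At 0 h WT was nearly constant, whereas Ex6DEL spanned more than 2 log2 units and still stayed below all arrays of 4 h. Fzd1 had an averaged log2 difference of 2.19 (SE 0.40, limma adjusted p = 0.0148), or 4.55-fold, and its other probe set was at the floor on every array.

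Of the 6 genes called after hCG, the promoters of 2, Sfrp2 and Fzd1, are shown from RefSeq, build GRCm38.p6. Both genes rose, and their promoters can be set side by side. Promoters of the other called genes are not shown. Each window holds the 250 bases before the transcription start, written 5′ to 3′ on the strand of the gene. Capitals mark matches to 5 motifs that were searched by their letters on both strands. CTTTGA, written TCAAAG where it lies on the opposite strand, is the core bound by TCF and LEF proteins. TGACGT is the core of a cAMP response element, and cAMP is the second messenger of the LH receptor. The letters TGTGGT are those of a RUNX site. A GC box was searched as GGGCGG. The letters of the TATA box were TATAAA.
Sfrp2, chr3:83766071-83766320, plus strand: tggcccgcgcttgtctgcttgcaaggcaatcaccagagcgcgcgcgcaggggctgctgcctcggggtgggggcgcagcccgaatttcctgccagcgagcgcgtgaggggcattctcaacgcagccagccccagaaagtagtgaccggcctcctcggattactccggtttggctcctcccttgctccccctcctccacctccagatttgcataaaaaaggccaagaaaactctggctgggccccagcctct
Fzd1, chr5:4758217-4758466, minus strand: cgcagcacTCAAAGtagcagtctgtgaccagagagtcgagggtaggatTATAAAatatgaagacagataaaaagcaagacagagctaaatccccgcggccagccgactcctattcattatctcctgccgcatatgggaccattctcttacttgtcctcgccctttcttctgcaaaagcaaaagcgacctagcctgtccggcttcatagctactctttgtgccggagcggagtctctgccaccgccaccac
The Sfrp2 window held no match to these 5 motifs and had a GC content of 63.6%. The Fzd1 window, at 51.2% GC, held a TCAAAG at 242 bases and a TATAAA at 202 bases before the start. The TCF and LEF core was held by 13.8% of all 32851 RefSeq promoters and by 10.9% of the 46 windows of the 38 WNT genes that matched. Those shares were 6.47% and 6.52% for TGACGT, 14.0% and 4.35% for TGTGGT, 32.7% and 69.6% for GGGCGG and 12.4% and 15.2% for TATAAA. A match is a description of the letters in a window and not evidence of binding.

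Fzd2 fell. Its log2 intensities were 8.23, 9.03 and 9.14 in WT at 0 h and 7.25, 7.88 and 8.15 at 4 h. In Ex6DEL they were 10.63, 9.06 and 8.17 at 0 h and 6.54, 6.02 and 6.96 at 4 h. The arrays of the WT groups nearly met, at 8.23 against 8.15, and those of the Ex6DEL groups were more than 1 log2 unit apart. Over both genotypes the log2 difference was -1.91 (SE 0.42, limma adjusted p = 0.0262), a 3.76-fold decrease. Its other probe sets gave -0.92 and -1.22, neither past the threshold. In 5 of the 12 fits without 1 array the call was kept, with adjusted p from 0.0102 to 0.0675, namely without WT 0 h replicate 1, WT 4 h replicate 3, Ex6DEL 0 h replicate 1 or 3, or Ex6DEL 4 h replicate 3. Without Ex6DEL 0 h replicate 1, in which Fzd2 was highest, the averaged difference was -1.58 (adjusted p = 0.0222).

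Lrp6, the co-receptor that is phosphorylated when a WNT ligand binds, had log2 intensities of 7.92, 8.96 and 9.41 in WT at 0 h and 11.45, 9.67 and 10.06 at 4 h. In Ex6DEL the values were 7.98, 8.59 and 8.85 at 0 h and 11.30, 9.69 and 10.32 at 4 h. The genotypes gave nearly the same values, and replicate 1 was the lowest array at 0 h and the highest at 4 h in both. Over both genotypes Lrp6 differed by 1.80 on the log2 scale (SE 0.42, limma adjusted p = 0.0340), or 3.48-fold, and the other Lrp6 probe set gave the same value of 1.80. Leaving out 1 array kept the call in 4 of 12 fits, with adjusted p between 0.0349 and 0.0735, namely without WT 0 h replicate 3, replicate 2 of either genotype at 4 h, or Ex6DEL 0 h replicate 3.

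The remaining receptors did not pass. Fzd5 came nearest, with log2 intensities of 8.11, 9.19 and 9.26 in WT at 0 h, 10.55, 10.18 and 9.58 in WT at 4 h, 8.59, 8.72 and 9.90 in Ex6DEL at 0 h and 10.04, 9.82 and 10.46 in Ex6DEL at 4 h. The WT arrays did not overlap, and in Ex6DEL replicate 3 of 0 h lay within the 4 h values. Fzd5 had an averaged log2 difference of 1.14 (SE 0.32, limma adjusted p = 0.0563). Several alternatives called it, among them quantile normalization and the fit without Ex6DEL 0 h replicate 3. Its other probe set gave a log2 difference of 0.0027 in WT. Fzd3 had 7.83, 8.39 and 9.12 in WT at 0 h, 8.39, 8.08 and 8.68 in WT at 4 h, 9.57, 8.55 and 8.49 in Ex6DEL at 0 h and 8.41, 8.10 and 7.81 in Ex6DEL at 4 h. Its groups overlapped in WT, and its averaged log2 difference was -0.42 (interval -1.04 to 0.21). Those of Fzd4, Fzd6, Fzd7 and Fzd8 were -0.80, -0.59, 0.28 and -0.29, with adjusted p between 0.449 and 0.640.

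No ligand passed the test. Wnt11, a ligand known mainly for signalling without beta-catenin, had log2 intensities of 3.40, 4.75 and 3.28 in WT at 0 h and 6.10, 5.74 and 4.75 at 4 h. In Ex6DEL it had 2.30, 3.28 and 4.75 at 0 h and 4.79, 5.45 and 6.77 at 4 h. The arrays did not overlap in Ex6DEL and touched at 4.75 in WT. Wnt11 had an averaged log2 difference of 1.97 (SE 0.54, limma adjusted p = 0.0530). Several alternatives called it, among them quantile normalization and the fit without Ex6DEL 0 h replicate 3.

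Wnt4, the ligand known to maintain ovarian identity, varied more between replicates than between times. It had log2 intensities of 10.16, 10.60 and 7.49 in WT at 0 h, 10.07, 12.21 and 11.64 in WT at 4 h, 8.22, 11.90 and 10.65 in Ex6DEL at 0 h and 9.78, 13.00 and 10.61 in Ex6DEL at 4 h. The lowest arrays at 0 h were again WT replicate 3 and Ex6DEL replicate 1. Averaged over genotypes, Wnt4 differed by 1.38 on the log2 scale (SE 0.90, interval -0.66 to 3.42, limma adjusted p = 0.439).

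Wnt7a had 7.22, 6.81 and 6.49 in WT at 0 h, 6.49, 7.32 and 7.23 in WT at 4 h, 6.49 on each Ex6DEL array of 0 h and 6.49, 6.77 and 7.46 in Ex6DEL at 4 h. The same value of 6.49 recurred in every group, and the averaged log2 difference was 0.30 (interval -0.19 to 0.78). Wnt5a, a ligand of the non-canonical branch, had 6.70, 6.13 and 4.17 in WT at 0 h, 5.13, 5.55 and 5.83 in WT at 4 h, 4.12, 5.65 and 4.25 in Ex6DEL at 0 h and 4.60, 5.43 and 4.26 in Ex6DEL at 4 h. For Wnt5a the averaged log2 difference was -0.04 (interval -1.13 to 1.05). Wnt5b lay lower at 4 h in WT, at 3.29, 4.28 and 3.44 against 4.56, 4.98 and 4.56, without overlap. In Ex6DEL, with 4.82, 5.06 and 4.81 at 0 h and 3.19, 5.21 and 4.74 at 4 h, its arrays overlapped. Wnt5b had an averaged log2 difference of -0.77 (SE 0.34, limma adjusted p = 0.215).

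Sfrp2, Sfrp4, Wnt4 and Wnt5a shared the same lowest pair of 0 h arrays, WT replicate 3 and Ex6DEL replicate 1. That pair was lowest for 4 of the 28 genes above the median level (14.3%) and for 3.09% of all genes above it. The pair was picked from the values of these same genes, so the shares do not test it. Without WT 0 h replicate 3 the averaged difference of Sfrp2 was 3.43 and that of Sfrp4 2.27 (adjusted p = 0.0781). Without Ex6DEL 0 h replicate 1 they were 3.42 and 2.17 (adjusted p = 0.0454).

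In the R-spondin axis no gene passed. Lgr4, an R-spondin receptor, had log2 intensities of 10.42, 11.24 and 10.48 in WT at 0 h, 11.22, 11.88 and 11.79 in WT at 4 h, 10.45, 10.98 and 10.77 in Ex6DEL at 0 h and 11.10, 12.23 and 10.91 in Ex6DEL at 4 h. The arrays of 4 h tended to be higher but overlapped those of 0 h in both genotypes. Lgr4 had an averaged log2 difference of 0.80 (SE 0.27, limma adjusted p = 0.103). Rspo2, an R-spondin ligand that oocytes of the mouse are known to secrete, had 7.04, 7.79 and 8.69 in WT at 0 h, 8.53, 7.69 and 8.07 in WT at 4 h, 9.02, 7.99 and 8.04 in Ex6DEL at 0 h and 8.91, 8.02 and 8.85 in Ex6DEL at 4 h. The times overlapped, with an averaged log2 difference of 0.25 (interval -0.51 to 1.01). The mean of 10 oocyte markers lay between 6.76 and 8.73 over all arrays. Znrf3, the ligase that removes Frizzled proteins from the membrane, had 5.71, 6.89 and 7.25 in WT at 0 h, 6.23, 6.07 and 6.72 in WT at 4 h, 6.11, 6.43 and 6.61 in Ex6DEL at 0 h and 6.04, 6.22 and 4.11 in Ex6DEL at 4 h. Znrf3 had an averaged log2 difference of -0.60 (interval -1.54 to 0.34), and 1 array of Ex6DEL at 4 h was far below the rest.

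The genes of the cytoplasmic relay and the transcription factors did not pass the test. Axin2, a scaffold of the beta-catenin destruction complex and a common target of canonical WNT signalling, had log2 intensities of 7.23, 6.98 and 7.72 in WT at 0 h, 7.59, 8.81 and 7.93 in WT at 4 h, 8.51, 7.88 and 8.02 in Ex6DEL at 0 h and 7.32, 8.20 and 8.62 in Ex6DEL at 4 h. The times overlapped in both genotypes, with an averaged log2 difference of 0.36 (interval -0.31 to 1.02). Axin1, the related scaffold, had 7.45, 8.47 and 8.85 in WT at 0 h, 8.52, 9.07 and 8.70 in WT at 4 h, 7.29, 8.93 and 8.54 in Ex6DEL at 0 h and 8.08, 8.62 and 8.79 in Ex6DEL at 4 h. Axin1 had an averaged log2 difference of 0.37 (interval -0.39 to 1.14). Dvl1, a Dishevelled gene, had 7.995, 9.14 and 9.35 in WT at 0 h, 9.67, 9.69 and 9.38 in WT at 4 h, 10.04, 9.38 and 9.39 in Ex6DEL at 0 h and 9.63, 9.59 and 9.38 in Ex6DEL at 4 h. The low WT 0 h replicate 1 set it apart, and its averaged log2 difference was 0.34 (interval -0.20 to 0.88).

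Tcf7l1, known mainly as a repressor among the TCF proteins, had the narrowest interval of the 28 genes plotted, with an averaged log2 difference of -0.03 (interval -0.45 to 0.38). It had log2 intensities of 8.501, 8.70 and 8.93 in WT at 0 h, 8.35, 9.10 and 8.70 in WT at 4 h, 8.21, 8.88 and 8.79 in Ex6DEL at 0 h and 8.24, 8.54 and 8.90 in Ex6DEL at 4 h. All 4 groups overlapped. Tcf7l2, a TCF gene that can activate targets with beta-catenin, had 5.01, 5.53 and 6.10 in WT at 0 h, 5.91, 5.63 and 4.98 in WT at 4 h, 5.49, 5.12 and 5.79 in Ex6DEL at 0 h and 5.72, 4.79 and 6.00 in Ex6DEL at 4 h. Its groups overlapped too, with a difference of -0.0004 (interval -0.65 to 0.65). Lef1 was at 3.05 on 10 arrays and at 3.66 and 3.43 on replicate 3 of WT and Ex6DEL at 4 h. Its averaged difference was 0.17 (interval -0.10 to 0.43).

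**Figure D3:**
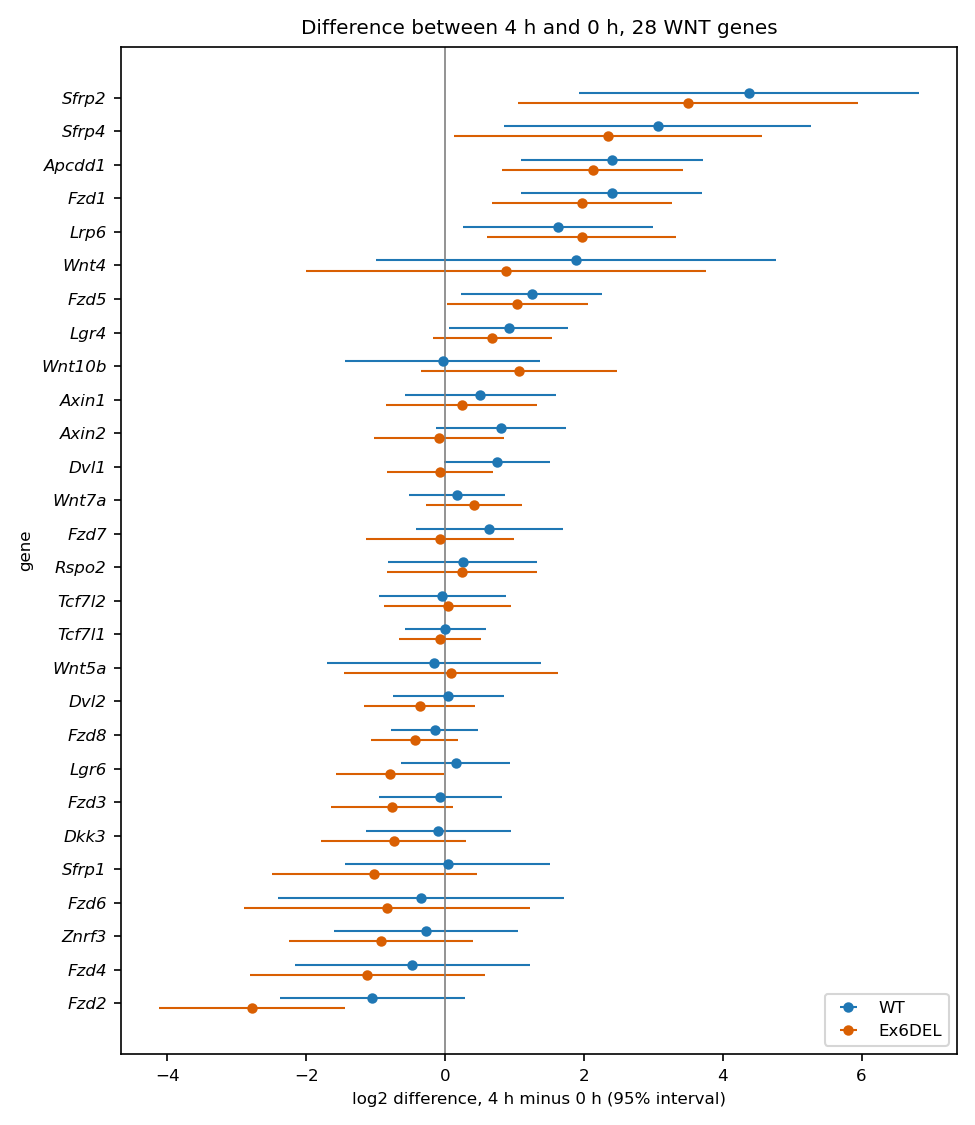
Log2 difference between 4 h and 0 h (horizontal axis, with 95% intervals) in WT (blue) and Ex6DEL (orange) for the 28 WNT genes above the median level (vertical axis). Sfrp2 is at 4.38 in WT and 3.50 in Ex6DEL, Fzd2 at -1.05 and -2.78, and the intervals of the genotypes overlap for every gene.

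Taken by genotype, none of the 59 genes passed an adjusted p of 0.05 after hCG. In WT 169 of all genes (0.929%) passed, and 7 WNT genes had an unadjusted p under 0.05 by limma, all of them higher (11.9%, against 6.12% of all genes), namely Apcdd1, Fzd1, Fzd5, Lgr4, Lrp6, Sfrp2 and Sfrp4. In Ex6DEL 394 of all genes (2.17%) passed, and 11 WNT genes had an unadjusted p under 0.05. Higher were 9 of them (15.3%, against 4.74% of all genes), Apcdd1, Fzd1, Fzd5, Lrp6, Sfrp2, Sfrp4, Wnt11 and, from low signals, Wnt2 and Wnt8b. Lower were 2 (3.39%, against 14.2%), Fzd2 and Lgr6. An unadjusted p under 0.05 was reached by 14.4% of all genes in WT and by 18.9% in Ex6DEL, against 11.9% and 18.6% of the 59.

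Arrays of 0 h and 4 h that did not overlap and differed by at least 1 log2 unit were seen for 8 WNT genes in WT (13.6%, against 9.45% of all genes) and for 7 in Ex6DEL (11.9%, against 12%). In WT 6 were higher (4.3% of all genes were), Apcdd1, Fzd1, Fzd5, Lrp6, Sfrp2 and Sfrp4, and 2 were lower (5.15% of all genes were), Fzd2 and Wnt5b. In Ex6DEL 6 were higher (2.95% of all genes were), Apcdd1, Fzd1, Lrp6, Sfrp2, Sfrp4 and Wnt11, and 1 was lower (9.07% of all genes were), Fzd2. The Ex6DEL difference of Fzd2 was -2.78 (SE 0.59, limma adjusted p = 0.0511), and it passed without Ex6DEL 0 h replicate 3, at -3.34 (adjusted p = 0.0188). Its WT difference was -1.05 (adjusted p = 0.496). With the replicate number as a block, Apcdd1 passed in Ex6DEL, at 2.12 (adjusted p = 0.0489), and 92 of all genes (0.506%) did. Under the same block Apcdd1 passed in WT too, where 85 of all genes (0.467%) did.

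The difference between the responses of the genotypes was tested as the interaction of genotype and time. No WNT gene passed, and 2 of all genes (0.011%) did. An unadjusted p under 0.05 by limma was reached by 0 of the 59 and by 3.2% of all genes. Fzd2 had an interaction of -1.73 (SE 0.83, interval -3.62 to 0.16, limma adjusted p = 0.871). For Sfrp2 it was -0.88 (interval -4.34 to 2.58), for Sfrp4 -0.72 (interval -3.85 to 2.41), for Apcdd1 -0.28 (interval -2.13 to 1.57), for Fzd1 -0.43 (interval -2.26 to 1.41) and for Lrp6 0.34 (interval -1.59 to 2.27). These intervals leave room for differences of more than 1 log2 unit in either direction for all of these genes but Fzd2, whose upper bound is 0.16. Of the 28 genes above the median level 23 had a negative interaction, with a median of -0.46, against a median of -0.32 over all genes above that level.

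Between the genotypes no WNT gene passed at either time. Before hCG 6 of all genes (0.033%) passed, and among the 59 1, Dvl1, had an unadjusted p under 0.05 by limma (1.69%, against 5.36% of all genes). Its log2 difference, Ex6DEL minus WT, was 0.77 (SE 0.34, interval 0.01 to 1.54, adjusted p = 0.874), and the arrays given above did not overlap, at 9.35 against 9.38. Without WT 0 h replicate 1, the lowest array of Dvl1, it was 0.36 (adjusted p = 1). Axin2 was 0.83 higher in Ex6DEL at 0 h (interval -0.11 to 1.77), and its arrays did not overlap either. Arrays that did not overlap between genotypes at 0 h were seen for 6 of the 59 genes (10.2%, against 6.41% of all genes), namely 4 above WT (Axin2, Dvl1, Lgr6 and Sfrp1, where 3.96% of all genes lay) and 2 below it (Fzd10 and Wnt7a, where 2.45% lay). Some of these arrays were barely apart. For Wnt7a the nearest arrays were at 6.4891 in Ex6DEL and 6.4902 in WT, the value that recurred in every group. For Fzd10 they were at 3.0285 and 3.1018, and for Lgr6 at 4.7483 and 4.73. No smallest gap was required, for the set or for all genes, so the shares also count separations this small. The median difference at 0 h of the 28 genes above the median level was 0.44, against 0.21 over all genes above it.

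Sfrp1 was the single WNT gene whose arrays at 0 h did not overlap and whose log2 difference reached 1 (1.69% of the set, against 1.42% of all genes). Its difference was 1.24 (SE 0.65, interval -0.24 to 2.72, limma adjusted p = 0.874) and rested on Ex6DEL replicate 1. Without that array it was 0.35. Of the other Sfrp1 probe sets, 1 gave -0.0013 and the rest kept the direction.

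After hCG no gene at all (0%) differed between the genotypes at an adjusted p of 0.05. Rspo3 and Wnt8b had an unadjusted p under 0.05 by limma (3.39%, against 1.62% of all genes). Rspo3 was at most 3.11 on any array. Wnt8b, a canonical ligand of the developing forebrain, was at 2.22, 4.33 and 4.39 in Ex6DEL and at 2.21, 2.22 and 2.32 in WT, a log2 difference of 1.39 (SE 0.49, adjusted p = 1). The groups overlapped through Ex6DEL replicate 1. Without that array Wnt8b passed at 4 h, at 2.11, and in the interaction, at 2.08 (adjusted p = 2.13e-06 and 2.23e-05), from 2 arrays of Ex6DEL at 4 h. Fzd2 was the only WNT gene whose arrays did not overlap between genotypes at 4 h (1.69%, against 2.98% of all genes, and 0.253% with a log2 difference of at least 1), with 6.02 to 6.96 in Ex6DEL and 7.25 to 8.15 in WT. Its log2 difference was -1.25 (SE 0.59, interval -2.59 to 0.09, adjusted p = 1), and its other probe sets gave -0.42 and 0.18. The genotype difference at 4 h of the genes that rose after hCG was 0.03 for Sfrp2 (interval -2.41 to 2.48), -0.17 for Sfrp4 (interval -2.38 to 2.05), 0.24 for Apcdd1 (interval -1.06 to 1.55), 0.09 for Fzd1 (interval -1.21 to 1.39) and 0.05 for Lrp6 (interval -1.32 to 1.41). The comparisons between genotypes and those between times use the same arrays, so their values are not independent of each other.

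**Figure D4:**
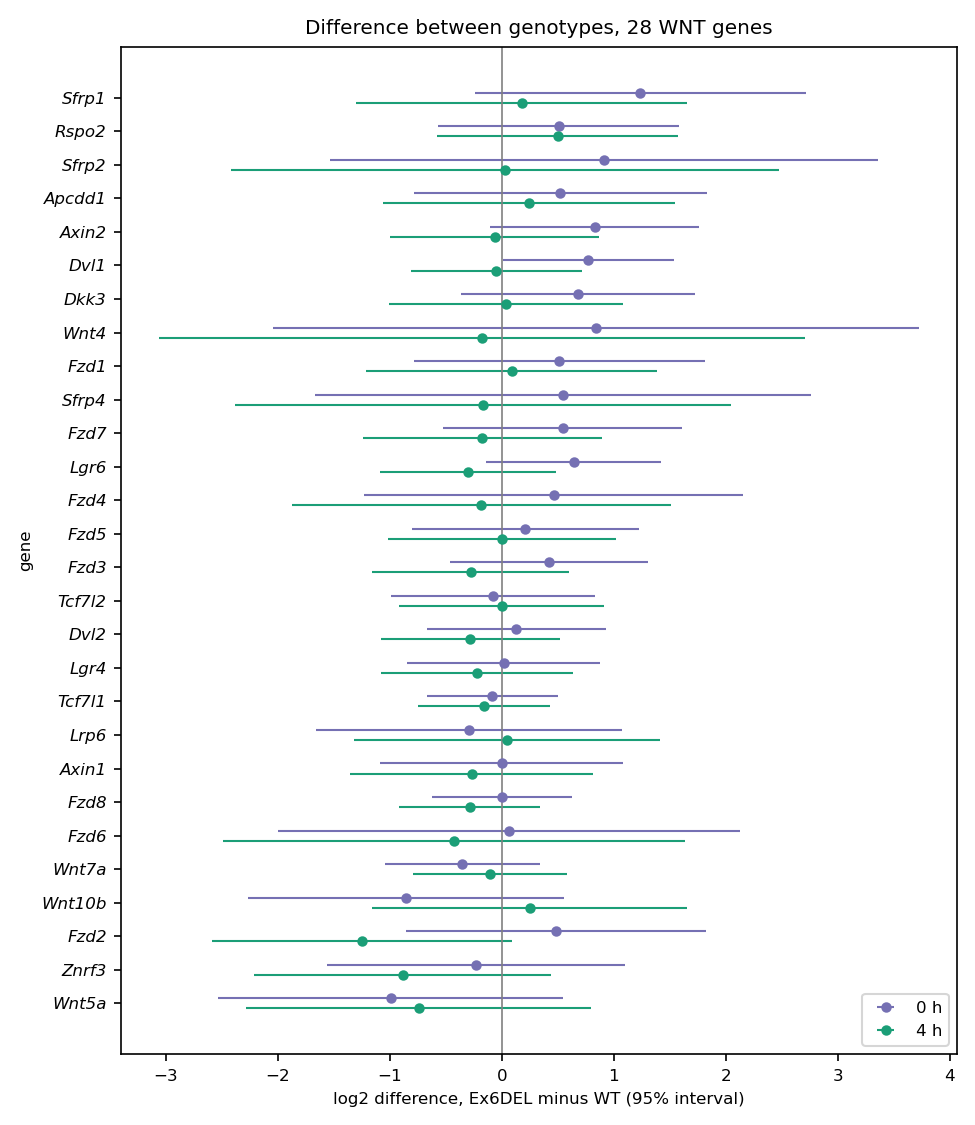
Log2 difference between Ex6DEL and WT (horizontal axis, with 95% intervals) at 0 h (purple) and at 4 h (green) for the 28 WNT genes above the median level (vertical axis). Sfrp1 is highest at 0 h, at 1.24, and Fzd2 lowest at 4 h, at -1.25, and the interval of 0 h excludes 0 only for Dvl1.

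Several WNT genes had their highest value on the array with the most theca and stroma signal. On Ex6DEL 0 h replicate 1 the mean of the 11 theca and stroma markers was 12.1, with Cyp17a1 at 15.1 and Dcn at 13.9, against at most 11.59 and 10.7 on the other 0 h arrays. None of these markers was at the floor on all arrays. On that array Sfrp1 was at 9.96 against at most 7.43 on any other, Fzd2 at 10.63 against at most 9.14, Fzd4 at 9.58 against at most 9.16 and Dkk3 at 7.43 against at most 5.88. It was the highest 0 h array for 14 of the 28 genes above the median level (50.0%), and for 39.3% of all genes above it. Their part in the differences was not tested, nor was that of the granulosa and oocyte means, which were also highest there. The averaged calls after hCG without this array gave 2.46 for Apcdd1 (adjusted p = 0.0158), 2.46 for Fzd1 (adjusted p = 0.0108), 3.42 for Sfrp2 (adjusted p = 0.0226) and 1.67 for Lrp6 (adjusted p = 0.0712).

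**Figure D5:**
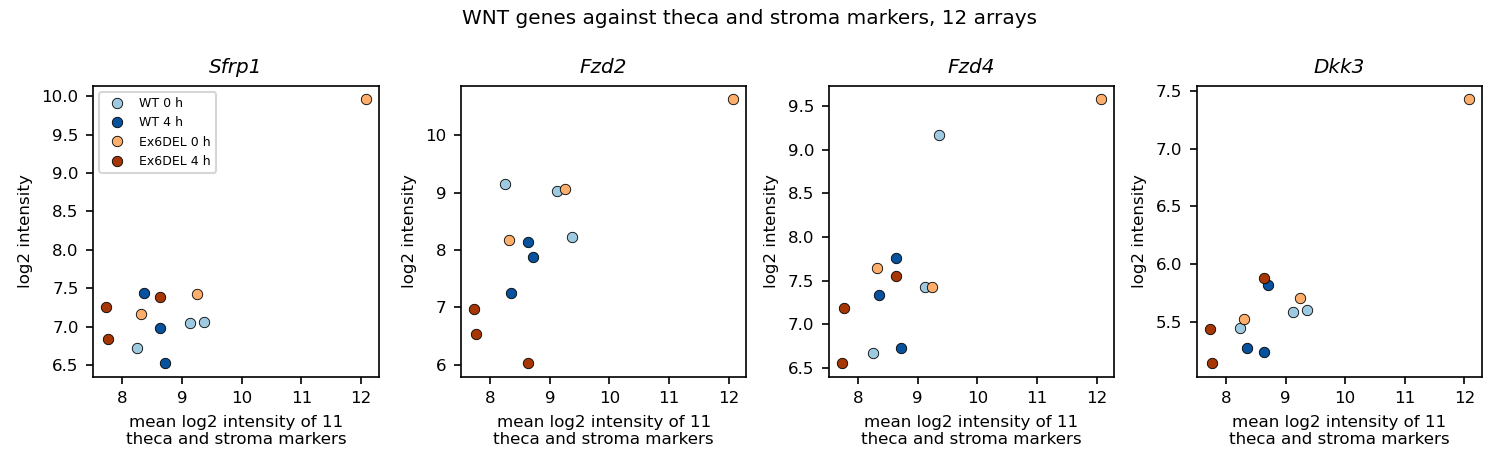
Log2 intensity of Sfrp1, Fzd2, Fzd4 and Dkk3 (vertical axes) against the mean log2 intensity of 11 theca and stroma markers (horizontal axes) on the 12 arrays, coloured by group. Ex6DEL 0 h replicate 1, at 12.1 on the horizontal axis, is the highest point in all 4 panels. The 4 genes plotted are ones highest on that array, so the panels do not test the pattern. Sfrp2, Sfrp4, Wnt4 and Wnt5a, which had it among their 2 lowest 0 h arrays, are not plotted.

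The second array that stood apart, Ex6DEL 0 h replicate 3, carried raised LH-induced genes. There Ptgs2, the cyclooxygenase gene that LH induces, was at 10.1 against at most 5.33 on the other 0 h arrays, and Fzd5, at 9.90, was at its highest among the 0 h arrays. Of the genes that rose after hCG, Fzd1 (7.47), Sfrp2 (5.86), Apcdd1 (6.05) and Lrp6 (8.85) lay there within the range of the other 0 h arrays, and Sfrp4, at 14.03, was the highest of 0 h by a small margin over 13.98. Fzd2, which fell after hCG, was at its lowest among the 0 h arrays there, at 8.17 against 8.23 on the next. Without that array the averaged differences were 2.29 for Fzd1, 4.06 for Sfrp2, 2.17 for Apcdd1, 1.89 for Lrp6, 2.98 for Sfrp4 and -2.19 for Fzd2, all with an adjusted p under the threshold. Without it Fzd5 and Wnt11 were called as higher too, 8 genes in all (13.6%, against 12.2% of all genes). The number of all genes called in Ex6DEL alone was 1256 without it, against 394 with it.

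A list of 85 other genes of the pathway, of which 84 were measured, covers ligand secretion, further receptors and modulators, the destruction complex, nuclear cofactors, the planar polarity branch and common targets. Of these 8 (9.52%, against 9.72% of all genes) passed after hCG over both genotypes. Higher were 5 (5.95%, against 3.1% of all genes) and lower were 3 (3.57%, against 6.62%). The nuclear corepressor genes Tle3 and Tle4 rose by 2.57 (SE 0.43, limma adjusted p = 0.0108) and 2.09 (SE 0.49, adjusted p = 0.0346) on the log2 scale. Tbl1x, part of a nuclear receptor corepressor complex that also binds beta-catenin, rose by 1.61 (SE 0.17, adjusted p = 0.00280). It was also the 1 listed gene called in WT, at 1.92, and in Ex6DEL, at 1.30.

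Senp2, a SUMO protease, rose by 2.11 (SE 0.47, limma adjusted p = 0.0276) and Tpbg, which encodes a membrane glycoprotein known to inhibit canonical signalling in zebrafish, by 2.72 (SE 0.68, adjusted p = 0.0415). Porcn, the acyltransferase that attaches the lipid WNT ligands need for secretion, fell by 1.15 (SE 0.28, adjusted p = 0.0388). Its log2 intensities were 6.40, 6.37 and 6.15 in WT at 0 h, 5.22, 5.41 and 5.26 in WT at 4 h, 7.56, 6.14 and 5.66 in Ex6DEL at 0 h and 5.26, 5.24 and 5.02 in Ex6DEL at 4 h, with no overlap between times. Prickle2, a planar polarity gene, fell by 2.65 (SE 0.51, adjusted p = 0.0168). Cxxc4, an inhibitor that binds Dishevelled, fell on average by 0.77 (SE 0.19, adjusted p = 0.0419), from low signals. Its WT arrays did not overlap, at 3.84, 3.66 and 4.54 at 0 h and 2.76, 2.76 and 2.74 at 4 h. Those of Ex6DEL did, at 2.82, 3.42 and 3.21 at 0 h and 2.49, 2.79 and 3.33 at 4 h. On Ex6DEL 0 h replicate 3 Tle3 (9.50), Tle4 (7.325), Tbl1x (8.33), Senp2 (7.75) and Tpbg (8.21) were at their highest among the 0 h arrays. Porcn was at its lowest there, while Prickle2 and Cxxc4 lay within the range of the other 0 h arrays.

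None of the 84 genes differed between the genotypes or in the interaction at an adjusted p of 0.05. Unadjusted p under 0.05 by limma were reached by 7 of them at 0 h (8.33%, against 5.36% of all genes), 0 at 4 h (1.62% of all genes) and 3 in the interaction (3.57%, against 3.2%). The smallest at 0 h were those of Cxxc4, at -0.86 (SE 0.27, adjusted p = 0.874), and of Ctnnb1, the gene of beta-catenin, at 1.02 (SE 0.36, adjusted p = 0.874). Ctnnb1 had 12.95, 13.79 and 14.01 in WT and 15.01, 14.67 and 14.15 in Ex6DEL at 0 h. The arrays did not overlap, and at 4 h the genotypes had 14.68, 14.34 and 13.85 against 14.45, 13.97 and 13.71, which did.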

How the data were processed

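The deposited values are log2 probe set intensities of 12 Affymetrix arrays made with GCRMA, per the submitters' processing notes. GCRMA corrects each probe for background by its base composition and summarises probes of a set, which leaves some dim probe sets at a common floor. Its version is not given in the sources used here. Of 45101 probe sets, 34958 have 1 gene symbol in the platform annotation, 932 have several and 9211 are not listed there, and the last 2 kinds were left out. Each of 18194 genes was read from its probe set with the highest mean over all arrays. The values were not normalized further.

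A linear model of the 4 groups was fitted to all genes with limma 3.58.1 in R 4.3.3 (8 residual degrees of freedom), and 6 contrasts were tested, with Benjamini-Hochberg adjustment over all genes and a threshold of 0.05. Intervals are 95% intervals of the fit. The fit was tested on simulated data. Members, gene lists and tests were chosen with earlier results of these data known. Array values are given for WNT genes called, for those whose arrays do not overlap and differ by at least 1, and for the 3 genes of highest mean in each role, and any other WNT gene is given in a clause. Alternatives covered normalization, a filter on low values, the choice of probe sets, array weights, the arrays in the fit, a replicate block and each array left out. The reported fits paired no samples, and the replicate number entered only as a block among the alternatives. Between the times in Ex6DEL, deviations of same-numbered arrays from their group means correlated at 0.143, 0.405 and 0.242. In the other comparisons at least 1 of the 3 correlations was under 0.1. The precision is limited by 3 arrays per group. Promoters come from RefSeq, build GRCm38.p6.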

Additional observations from a re-analysis of the deposited data

How the results depend on the processing

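For 23 results on single WNT genes, 449 alternative values kept direction and side of the threshold, 34 lost the threshold, 21 gained it, 1 was at 0 (an Apcdd1 probe set at the floor, in WT) and 2 changed sign. The 2 were other probe sets, with -0.0013 for Sfrp1 between genotypes at 0 h and 0.1766 for Fzd2 at 4 h, and the cause was not tested. Shares of all genes called under the same setting stand in parentheses. The WNT genes called in WT (0 as reported, 0.929%) became 2 with all arrays shifted to 1 median (2.03%), 3 of 28 among genes above the median level (5.77%), 4 with array weights (12.6%) and 1 with the replicate block (0.467%). They were 0 to 1 when 1 array was left out (0.275% to 1.89%). In Ex6DEL (0 as reported, 2.17%) they became 1 with the shift (2.96%), 5 of 28 above the median level (14.7%) and 1 with weights (2.27%). They became 1 with the replicate block (0.506%). With the pair of WT 0 h replicate 1 and Ex6DEL 0 h replicate 3 left out they became 2 (7.11%). With 1 array left out they were 0 to 2 (0.143% to 6.9%). The 2 were Wnt2 and Wnt8b, from low signals, without Ex6DEL 4 h replicate 1 (0.643%). Over both genotypes (6 as reported, 9.72%) they became 28 with the shift (40.3%), 7 with quantile normalization (11.3%) and 8 of 28 above the median level (27.5%). With 1 array left out they were 3 to 8 (4.92% to 12.2%). The shift moved the median of all genes to 0.20 and turned all genes called from 564 higher and 1204 lower to 5845 higher and 1493 lower, and quantile normalization gave 961 higher and 1090 lower. Between genotypes at 4 h and in the interaction, 0 to 1 WNT genes were called when 1 array was left out. The 1 was Wnt8b without Ex6DEL 4 h replicate 1 (0.192% at 4 h and 0.126% in the interaction).

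Of the other pathway genes, 1 was called in WT as reported (0.929%, with shares of all genes again in parentheses). The 1 became 2 with the shift (2.03%), 3 of 55 above the median level (5.77%) and 0 with the mean of probe sets (1.12%). It became 14 with weights (12.6%) and 0 with the compared groups alone (0.0934%). Without the pair of arrays 2 were called (1.76%), and 0 to 3 with 1 array left out (0.275% to 1.89%). In Ex6DEL the 1 (2.17%) became 7 of 55 above the median level (14.7%) and 0 with the mean of probe sets (1.86%). It also became 0 with the compared groups alone (0.055%) and with every probe set tested. Without the pair of arrays 6 were called (7.11%), and 0 to 6 with 1 array left out (0.143% to 6.9%). Over both genotypes the 8 (9.72%) became 27 with the shift (40.3%), 17 of 55 above the median level (27.5%) and 15 with weights (16.5%). They were 3 to 8 with 1 array left out (4.92% to 12.2%).

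Deviations of same-numbered arrays from their group means correlated between -0.369 and 0.727 over all pairs of groups, and all 3 pairs were over 0.1 for the times in Ex6DEL alone. With the replicate block Apcdd1, Fzd1, Sfrp2 and Lgr4 were called over both genotypes, 4 in all (6.78%, against 9.44% of all genes). There Sfrp4, Fzd2 and Lrp6 had adjusted p of 0.0639, 0.0538 and 0.0577. Over all genes the calls of 169 in WT ranged from 17 to 2289 and those of 394 in Ex6DEL from 10 to 1334 over the alternatives. Of the 59 genes, 8 stayed within 0.1 of the floor on all arrays (10.6% of all genes did), and no change in them could be measured. Dim genes that repeated a value of their own on most arrays, such as Lef1 and Wnt9a, are not counted in the 8.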

Other observations

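Several WNT genes had 1 or 2 arrays apart from the rest. Wnt8b was between 2.21 and 2.32 on 10 arrays and at 4.33 and 4.39 on Ex6DEL 4 h replicates 2 and 3. Wnt9b was at 4.75 on Ex6DEL 4 h replicate 3 and between 3.101 and 3.27 on the other arrays. WT 0 h replicate 1 had the highest value of Wnt8a (4.13), of Rspo1 (3.83), a gene of ovarian determination in the mouse, and of Lgr5 (4.11), a receptor known from stem cells of the mouse gut. Rspo3 was at 2.57 and 3.11 on Ex6DEL 4 h replicates 1 and 2 and at most 2.30 on the others. Wnt10b was at 2.78 on Ex6DEL 0 h replicate 1 and at 4.69 or more on the others.

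On 4 h replicate 1 of both genotypes Lrp6 (11.45 in WT and 11.30 in Ex6DEL) and Smarca1 (12.32 and 12.19) had their highest values over the 12 arrays. Those arrays also had the lowest Wnt5b of their groups, at 3.29 and 3.19, and the highest Apcdd1, at 8.96 and 9.47.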
